A study of Mus musculus with 6 samples.

Results

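The genes described here are the cadherins and protocadherins of the array: those whose single platform symbol starts with Pcdh or is Cdh followed by a number. There were 56 of them among 18193 genes measured. Each was read by the 1 probe set with the highest mean over all 6 arrays. That mean includes the Ag1.3 arrays, so the choice can lean towards a probe set that reads higher with Ag1.3. For Cdh4 the chosen probe set had means of 101 in RA and 143 with Ag1.3, and another had 108 and 117. By name they fall into 23 clustered protocadherins, 12 other protocadherins, 16 classical cadherins (5 of type I and 11 of type II) and 5 other numbered cadherins. All 22 numbered beta protocadherins were present. The gamma cluster had 1 member, Pcdhgc4, and the alpha cluster none, because the 6 probe sets for alpha genes are annotated to several of them at once and were left out.

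RNA came from neuralized embryoid bodies, floating aggregates of mouse embryonic stem cells guided towards neural progenitors, and each of the 6 samples was hybridised to 1 Affymetrix array. All cultures came from a stem cell line that expresses a Gli1-FLAG transgene constitutively from the Rosa26 promoter, so the controls carry it too. After 2 days in suspension the 3 RA cultures were given 500 nM all-trans retinoic acid for 3 days. The 3 Ag1.3 cultures were given the same retinoic acid together with 50 nM Ag1.3, an agonist of the hedgehog signal transducer Smoothened. Cultures with the same number were grown in parallel, which gives 3 pairs, and the comparison asks how the members differ with the agonist within a pair. The labels name neural progenitors, and the 8 neural progenitor markers examined (Sox1, Sox2, Sox3, Nes, Hes5, Fabp7, Msi1 and Vim) had summed intensities of 8924 to 12979 in RA and 10670 to 13230 with Ag1.3.

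Cadherins are membrane proteins that hold neighbouring cells together through calcium-dependent binding of their extracellular domains. Classical cadherins bind catenins inside the cell, which link them to actin, and cells with different classical cadherins tend to sort apart; in the neural tube E-cadherin of early epithelium gives way to N-cadherin, and type II cadherins mark groups of progenitors and motor neuron pools. Protocadherins lack the catenin-binding tail of classical cadherins. The clustered ones lie side by side in alpha, beta and gamma arrays, are used in different combinations by single neurons, and let a neurite tell itself from others, while the others have separate roles in sorting, axon growth and synapses.

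With Ag1.3, 2 of the 56 members rose and none fell: Cdh6, a type II classical cadherin, and Cdh13, a cadherin held in the membrane by a lipid anchor. That is read against 1.39% of all genes called in either direction and 1.07% of all genes called higher. Calls were made by limma's test with the pair as a block and Benjamini-Hochberg adjustment over all genes (threshold 0.05). At an unadjusted p under 0.05 in limma's test 14 members were higher, these 2 included, and 3 were lower, where 7.24% of all genes were higher and 7.68% lower. Without pair 1 limma called 0 of the 56, with 10 at an unadjusted p under 0.05, and without pair 2 or pair 3 it called Cdh6 alone. Scaling the arrays to the hybridization spikes gave 3 higher (Cdh6, Cdh13 and Pcdhb17) and 4 lower (Cdh1, Cdh8, Pcdh19 and Pcdhb15). In that setting 14.9% of all genes were called, and only 10.9% of those calls were higher. Most members differed by little, with a median log2 fold change of 0.09 beside -0.01 over all genes. In either direction 4 of 56 members differed by more than 0.5, where 574 of all 18193 genes did. Of the 56, 32 read above the unspiked control probe sets (highest value 20.71) on all 6 arrays, 12 on some, and 12 on none. For those 12 the array gave no level distinct from background. The p-values measure spread between 3 pairs of cultures of 1 line. In whole embryoid bodies fewer cells that express a gene and less RNA per cell cannot be told apart.

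**Figure D1:**
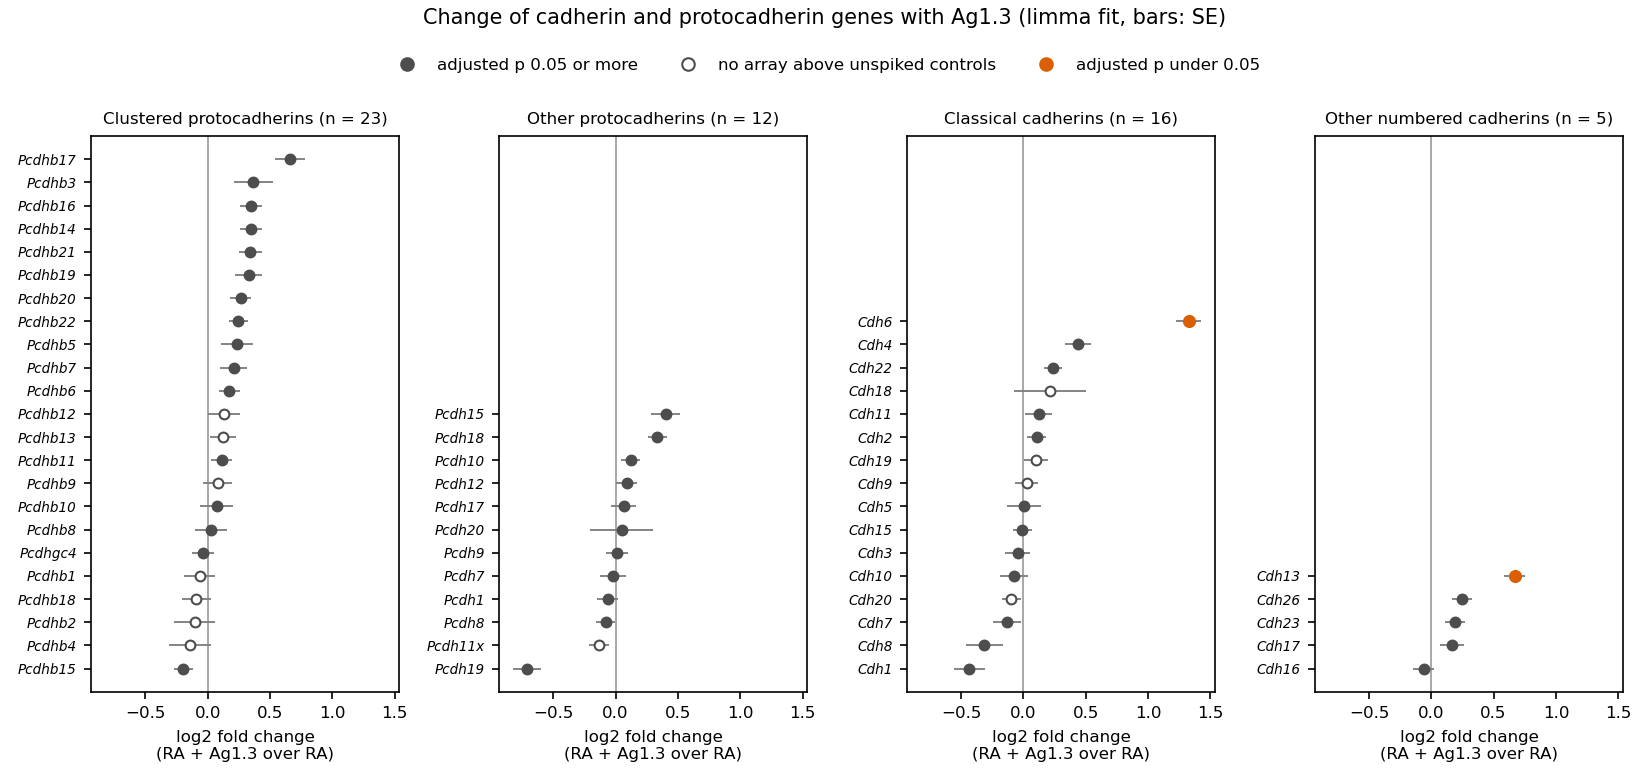
The plot gives the log2 fold change (RA + Ag1.3 over RA, horizontal axis) with its SE for each of the 56 members, in a panel for each class. Only Cdh6 (1.33) and Cdh13 (0.67), in orange, passed the threshold; open symbols mark the 12 members with no array above the unspiked controls.

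Cdh6 is a type II cadherin known from kidney and from subdivisions of the hindbrain and spinal cord. Its intensity was 64.9, 59.7 and 68.0 in RA replicates 1 to 3 and, with Ag1.3, 181.7, 152.5 and 228.0. Every Ag1.3 array thus lay above every RA array, by more than the spread within either group. The means were 64.2 ± 4.21 and 187 ± 38.1 (SD, n = 3), a log2 fold change of 1.33 (SE 0.10, limma adjusted p = 0.0104) or 2.51-fold on the log2(intensity + 16) scale. The other Cdh6 probe set also read higher in each pair, with a log2 fold change of 0.82 and means of 59.9 and 118. Without pair 1 the adjusted p was 0.0570, and with a pseudocount of 1 it was 0.116.

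Cdh13, also called T-cadherin, lacks the transmembrane and cytoplasmic parts of other cadherins and is found on axons and blood vessels. It read 29.0, 32.0 and 24.6 in RA and 51.4, 58.2 and 54.4 with Ag1.3, so the groups did not overlap. The means were 28.5 ± 3.70 and 54.6 ± 3.42 (SD, n = 3), with a log2 fold change of 0.67 (SE 0.08, limma adjusted p = 0.0341). Its 3 further probe sets gave 0.28, -0.02 and -0.10, none at an unadjusted p under 0.05. With the mean of all 4 probe sets the log2 fold change was 0.21 and the adjusted p 0.226. The call also ended without any 1 of the pairs (adjusted p 0.0972 to 0.174) and with a pseudocount of 1 (0.141).

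**Figure D2:**
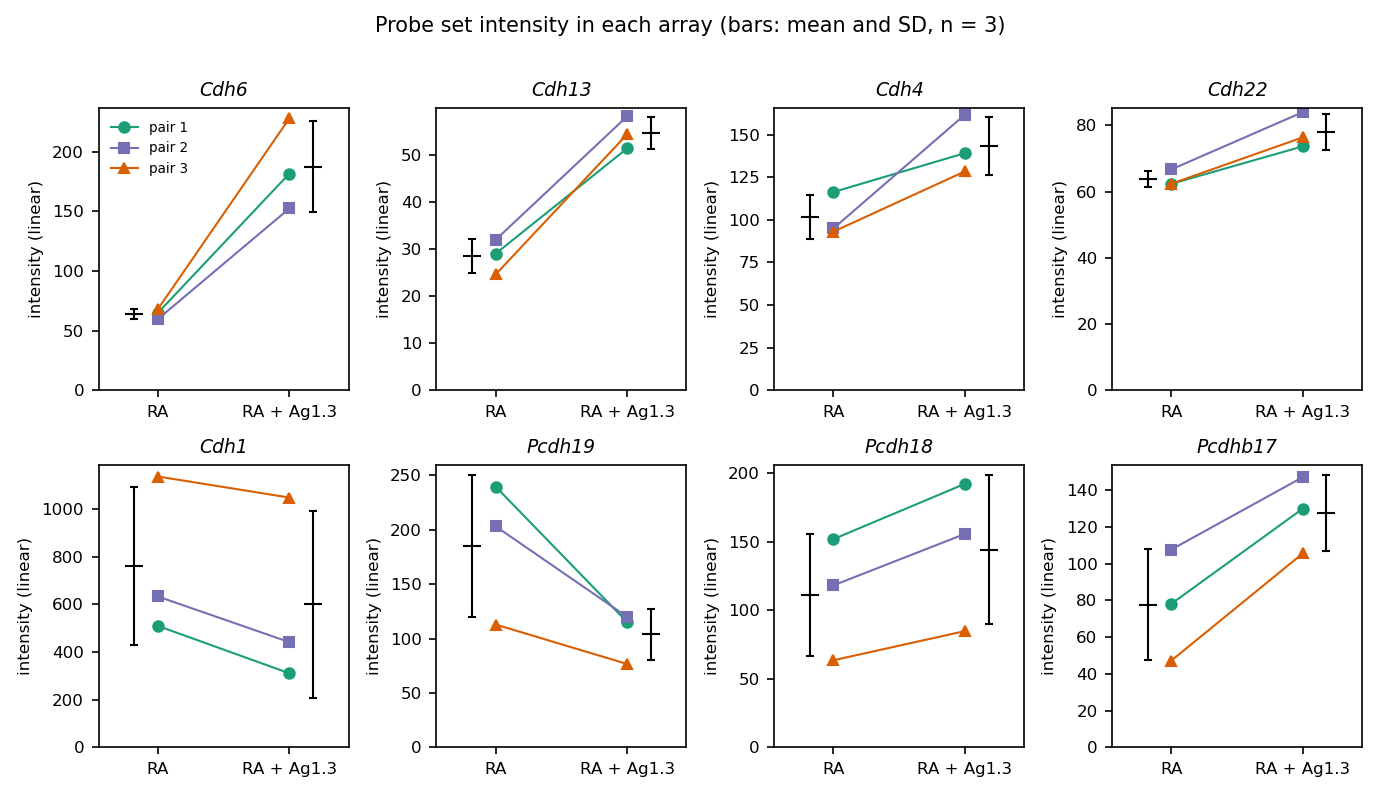
Deposited intensity (linear, vertical axis) of 8 members in each array, with lines joining the cultures of a pair and bars for the mean and SD of 3 arrays. Cdh6, Cdh13, Cdh4 and Cdh22 have no overlap between groups, while Cdh1, Pcdh18, Pcdh19 and Pcdhb17 move the same way in each pair from different starting levels.

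To show what lies before the 3 members with the smallest p among those the sequence table held, the 250 bases upstream of the annotated start of Cdh6, Pcdh18 and Pcdh19 are given 5′ to 3′ along the gene's strand (RefSeq, GRCm38.p6; 20 of the 56 members were matched in that table, and Cdh13 was not). Capitals mark the GC box GGGCGG and the CCAAT box CCAAT, on either strand. The Cdh6 window is chr15:13173676-13173925, minus strand, the Pcdh18 window chr3:49757317-49757566, minus strand, and the Pcdh19 window chrX:133688994-133689243, minus strand.
Cdh6: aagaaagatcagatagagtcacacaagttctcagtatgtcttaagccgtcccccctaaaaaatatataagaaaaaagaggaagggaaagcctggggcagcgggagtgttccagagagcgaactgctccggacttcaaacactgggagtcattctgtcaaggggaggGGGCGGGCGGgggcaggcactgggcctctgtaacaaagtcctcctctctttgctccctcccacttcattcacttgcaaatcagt
Pcdh18: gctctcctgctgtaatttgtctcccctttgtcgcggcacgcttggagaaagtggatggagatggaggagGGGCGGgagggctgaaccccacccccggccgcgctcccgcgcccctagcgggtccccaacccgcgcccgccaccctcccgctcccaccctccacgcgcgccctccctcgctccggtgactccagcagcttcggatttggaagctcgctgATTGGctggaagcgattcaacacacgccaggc
Pcdh19: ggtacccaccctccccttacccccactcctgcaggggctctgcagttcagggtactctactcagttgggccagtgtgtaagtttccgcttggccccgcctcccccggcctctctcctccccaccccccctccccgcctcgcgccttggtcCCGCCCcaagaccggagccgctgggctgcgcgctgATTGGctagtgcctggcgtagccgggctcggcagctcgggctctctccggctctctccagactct
The Cdh6 window holds overlapping GC boxes whose first bases are 84 and 80 bases before the start, and no CCAAT box. In the Pcdh18 window a GC box begins 181 and a reverse CCAAT box 32 bases before the start, and in that of Pcdh19 these lie 100 and 65 bases before it. Of 32851 promoter windows of this length, 32.7% hold a GC box and 33.8% a CCAAT box, so the matches are common. The Gli consensus GACCACCCA, the forkhead motif TGTTTAC and the homeodomain motif TAATTA were also searched on both strands and are absent from these 3 windows, as they are from all but 0.225%, 3.17% and 4.84% of all windows. The E-box CAGGTG, bound by Snail and Zeb factors, was absent from the 3 as well and occurs in 17.2% of windows. The windows differ in base composition, with 6 CpG pairs for Cdh6, 23 for Pcdh18 and 16 for Pcdh19 beside a median of 6.

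Among the type I classical cadherins, Cdh1, E-cadherin of epithelial and pluripotent cells, read lower with Ag1.3 in each pair without passing the threshold. Its intensities were 510, 633 and 1137 in RA and 311, 442 and 1048 with Ag1.3. The groups overlapped because both arrays of pair 3 were the highest of all. The log2 fold change was -0.43 (SE 0.12, limma adjusted p = 0.200), and it passed when the variance was allowed to follow intensity (adjusted p = 0.0411) and when arrays were scaled to the hybridization spikes (0.00417). Among 8 markers of simple epithelium and endoderm 5 were lower at an unadjusted p under 0.05 in limma's test: Epcam, Krt8, Krt18, Cldn6 and Sox17. Of these Krt8 and Sox17 passed the threshold. The endoderm markers Gata6, Gata4 and Afp did not go with them, at log2 fold changes of 0.16, 0.02 and -0.03. The summed intensity of all 8 was 1054 to 2406 in RA and 618 to 1810 with Ag1.3. Of 6 pluripotency markers 5 were lower at that p, with Pou5f1 past the threshold and sums of 4648 to 7591 and 2927 to 5876. The part of these cells in the Cdh1 difference was not tested.

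N-cadherin, Cdh2, the main cadherin of neural progenitors, read 1631, 1490 and 1023 in RA and 1744, 1522 and 1168 with Ag1.3. Its log2 fold change was 0.10, with a 95% interval of -0.09 to 0.30, and a further probe set gave 0.08. Cdh4, R-cadherin of retina and brain, read 116, 94.99 and 93.1 in RA and 139, 162 and 128 with Ag1.3. Those groups did not overlap, but the log2 fold change of 0.44 (SE 0.11) had a limma adjusted p of 0.150, and the 2 further probe sets each gave 0.10. Cdh3, P-cadherin of epithelia, and Cdh15, a muscle cadherin, had values of -0.05 and -0.01. A further probe set of Cdh3, above the unspiked controls on 1 array, gave -0.46 at an unadjusted p of 0.014 in limma's test.

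The type II cadherins other than Cdh6 showed no call. Cdh22, a brain cadherin, came closest at 62.4, 66.7 and 62.4 in RA and 73.7, 84.0 and 76.4 with Ag1.3, again without overlap, with a log2 fold change of 0.24 and a limma adjusted p of 0.229. Cdh11, a cadherin of mesenchyme and neural tissue, read 138 ± 25.5 and 150 ± 2.58 (SD, n = 3) with a log2 fold change of 0.12. Cdh7 and Cdh20, which with Cdh6 and Cdh8 are known from motor neuron subsets, were close to background: Cdh20 did not exceed the unspiked controls on any array, and Cdh7 read 24.6 to 30.6 in RA and 19.2 to 27.7 with Ag1.3. Cdh8 went from 18.5 ± 3.75 to 11.95 ± 4.84 (SD, n = 3), both means within the range of the controls. Cdh9, Cdh18 and Cdh19 did not exceed the controls on any array either, and Cdh5, the endothelial cadherin, and Cdh10 had log2 fold changes of 0.00 and -0.07.

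Of the other numbered cadherins, Cdh26 read 29.9 to 33.6 in RA and 39.2 to 44.2 with Ag1.3, with a log2 fold change of 0.25 and a limma adjusted p of 0.235. The groups of Cdh26 did not overlap. Cdh23, which pairs with Pcdh15 in the tip links of hair cells, had 0.19, and Cdh16 and Cdh17, cadherins of kidney and gut, -0.06 and 0.17. Over all classes, 7 of 56 members had every Ag1.3 array above every RA array and none the reverse, where 6.45% of all genes had the first and 5.35% the second.

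The non-clustered protocadherins had a median log2 fold change of 0.03. Pcdh19, a delta protocadherin on the X chromosome that works together with N-cadherin, had the lowest value of all 56. It read 240, 203 and 113 in RA and 115, 120 and 76.7 with Ag1.3, lower in each pair, although pair 3 was low in both cultures and the groups overlapped. The log2 fold change was -0.71 (SE 0.11), and the limma adjusted p of 0.0586 was just outside the threshold. A further probe set gave -0.64 with an unadjusted p of 0.0021, and the other gave -0.12. Pcdh19 passed in 4 of 11 alternatives, with adjusted p from 0.00016 to 0.619, the largest of these without the pair as a block.

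Pcdh18, another delta protocadherin, read higher in each pair without passing the threshold. It went from 152, 118 and 63.6 in RA to 192, 156 and 84.9 with Ag1.3, a log2 fold change of 0.34 (SE 0.07, limma adjusted p = 0.116). Its 2 further probe sets gave 0.11 and -0.08. Pcdh15, the hair cell tip link protein, read 17.4 to 29.8 in RA and 30.8 to 37.5 with Ag1.3, without overlap, with a log2 fold change of 0.40 and a limma adjusted p of 0.205; its further probe sets gave 0.07 and -0.10, and lay below the highest unspiked control on all but 1 array.

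Pcdh8, known from paraxial mesoderm and from synapses, differed by little with the treatment and by much between pairs, at 609, 558 and 170 in RA and 622, 500 and 155 with Ag1.3. The log2 fold change was -0.08 with a 95% interval of -0.28 to 0.12. Pcdh17, which takes part in axon growth and synapse organisation, had 0.06 (interval -0.19 to 0.32). Pcdh7 and Pcdh9 had values of -0.02 and 0.01. Pcdh10, known from axon pathways of the forebrain, read 18.3 to 25.4 over all arrays, near the controls, with 0.12. Pcdh1, Pcdh12 and Pcdh20 had values of -0.06, 0.09 and 0.05, and Pcdh11x did not exceed the controls on any array.

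None of the clustered protocadherins passed the threshold, and most of them read slightly higher with Ag1.3. Their median log2 fold change was 0.13, against 0.03 for the other protocadherins, 0.01 for classical cadherins and -0.01 for all genes. Of the 23, 17 had a value above 0 and 10 were higher in all 3 pairs, with 1 lower in all 3; among all genes 17.2% were higher and 19.5% lower in all 3 pairs. For comparison, 4 of 12 other protocadherins, 4 of 16 classical cadherins and 3 of 5 other numbered cadherins were higher in each pair. The median of the clustered genes was 0.24, 0.22 and 0.09 in pairs 1, 2 and 3, smallest in pair 3. When arrays were scaled to the hybridization spikes, which moved the median of all genes to -0.19, the clustered median was below 0 at -0.05 and still above that of all genes. Whether the classes differ was not tested, since members of a class are not replicates.

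Of the clustered members 8 had an unadjusted p under 0.05 in limma's test, 7 of them higher and 1 lower. Among all genes 7.24% were higher and 7.68% lower at that p. All 8 were beta genes, but so were 22 of the 23 measured, so beta genes cannot be compared with alpha and gamma genes here. Pcdhb17 read 78.1, 107.7 and 47.2 in RA and 130, 147 and 106 with Ag1.3, higher in each pair, with overlap between RA replicate 2 and Ag1.3 replicate 3. Its log2 fold change was 0.66 (SE 0.12), with a limma adjusted p of 0.0801 that passed in 4 of 11 alternatives. Pcdhb14, Pcdhb16, Pcdhb19, Pcdhb20, Pcdhb21 and Pcdhb22 were also higher in all 3 pairs, with log2 fold changes of 0.25 to 0.35 and limma adjusted p of 0.162 to 0.257. Of these Pcdhb14 was near background, with means of 9.97 and 17.2, and exceeded the unspiked controls on only 1 array. Pcdhb15 was the 1 member of the cluster lower in each pair, at -0.20. Its further probe set gave 0.21 but exceeded the unspiked controls on no array. Further probe sets of Pcdhb16 gave 0.27 and -0.12, the second above the controls on no array, and that of Pcdhb21 gave 0.25. Pcdhgc4 had -0.04.

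Along the chromosome the beta genes run in the order of their numbers, and most of the larger values lay towards the end of the row. Pcdhb3, near its start, was an exception at 0.37 (limma adjusted p = 0.352), below Pcdhb17 alone. Later in the row Pcdhb15 and Pcdhb18 had -0.20 and -0.09. The first 11 genes had a median log2 fold change of 0.08, with 0 of 11 at an unadjusted p under 0.05 and none called by limma. The last 11 had a median of 0.26, with 7 higher and 1 lower at that p, where 7.24% of all genes were higher and 7.68% lower. This division was made after the values were seen. Spearman's rho between order and log2 fold change was 0.40 over 22 genes, and that between mean intensity and log2 fold change was 0.61. Intensity also went with order (rho 0.46), so the brighter probe sets lay later in the row, and the pseudocount draws the values of dim probe sets towards 0. Of the 11 beta genes above the unspiked controls on all arrays, 7 were higher in each pair, as were 17.2% of all genes, and the median was 0.25. These genes are close in sequence, share the 6 arrays and are not independent, and cross-hybridization between their probe sets was not tested.

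**Figure D3:**
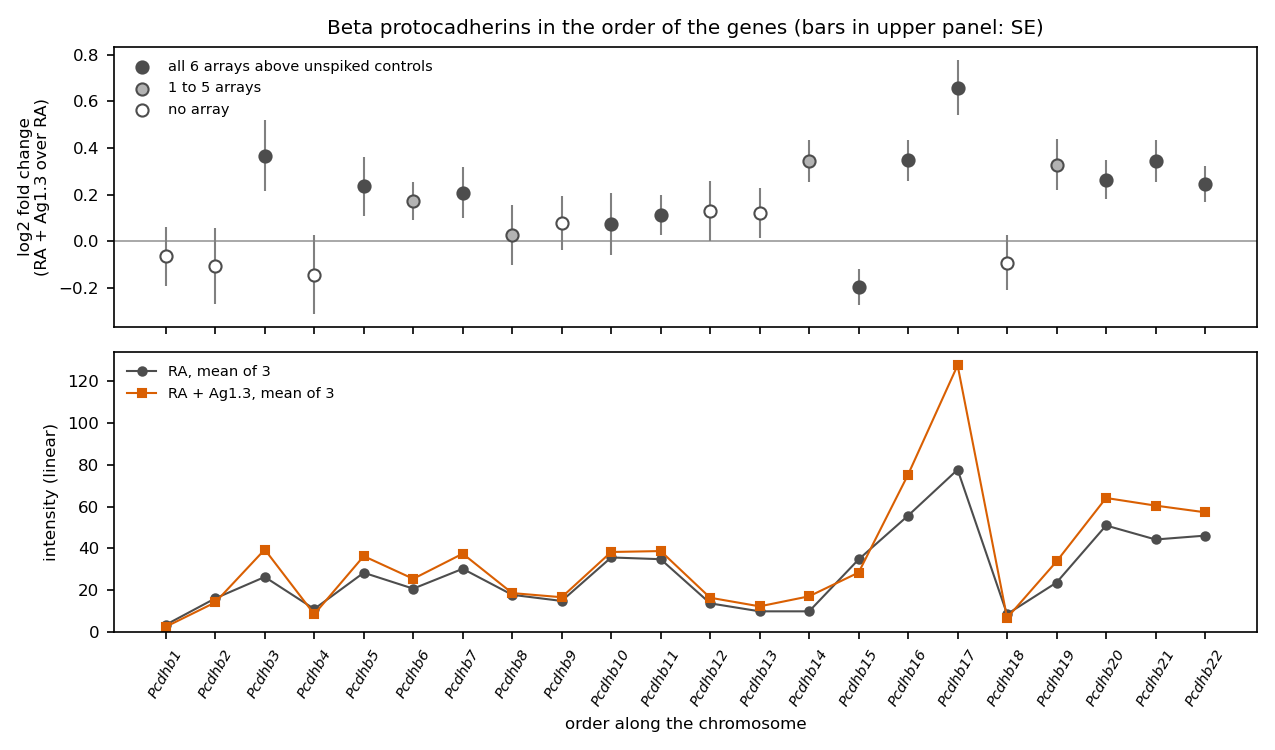
Upper panel, log2 fold change with SE of the 22 beta protocadherins in their order along the chromosome; lower panel, mean deposited intensity of the 3 RA and the 3 Ag1.3 arrays. The last 11 genes have a median of 0.26 and the first 11 one of 0.08, and Pcdhb17 has the highest value (0.66).

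Markers of other cell types changed in the same comparison. Of 10 neuron markers 8 rose, with summed intensities of 2237 to 3718 in RA and 6667 to 9606 with Ag1.3, and 4 of 6 motor neuron markers rose, from 209 to 272 up to 1302 to 2123. Of 5 floor plate markers 3 rose, with sums of 939 to 1139 and 1885 to 2839. Of 5 dorsal progenitor markers 3 fell, Pax3, Pax7 and Zic1, and all 5 were lower at an unadjusted p under 0.05 in limma's test, with a list median of -2.87 and sums of 557 to 1729 and 160 to 181. All of these markers exceeded the unspiked controls on at least 1 array. The part of these cell types in the values of Cdh6, Cdh13, Pcdh19 and the beta protocadherins was not tested. Of 5 mesoderm and muscle markers none passed limma's threshold, with 2 lower at an unadjusted p under 0.05 and sums of 246 to 309 and 213 to 271. Of 6 endothelial markers none passed limma's threshold, with 1 higher and 1 lower at an unadjusted p under 0.05 and sums of 220 to 266 and 250 to 255. None of 5 neural crest markers passed either, with 0 at that p. Over all genes 7.24% were higher and 7.68% lower at that p.

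Levels also varied between pairs, and pair 3 stood apart for some members. Both of its arrays lay below all 4 others for 7 of 56 members (12.5%), where 11.7% of all genes did so. They lay above the others for 5 (8.93%), where 15.5% of all genes did. Standing below was thus about as common here as over the array, and standing above less common. Among the 12 other protocadherins 4 lay below. Members with pair 3 below were Pcdhb22, Pcdh8, Pcdh17, Pcdh18, Pcdh19, Cdh2 and Cdh10, and those with it above Pcdhb6, Pcdh12, Cdh1, Cdh15 and Cdh16. Pcdh8 had the widest gap, at -1.72 on the log2 scale between the mean of pair 3 and that of the other arrays, followed by Pcdh17 at -1.01 and Pcdh18 at -0.91, while Cdh2 had -0.54. Cdh1 had 1.22 in the opposite direction. Neural progenitor markers summed to 8924 to 10670 in pair 3 and 11667 to 13230 in the other pairs. The progenitor marker Fabp7 went the other way, at 1037 and 1710 in pair 3 and 705 to 918 elsewhere. Epithelial and endoderm markers summed to 1810 to 2406 in pair 3 and 618 to 1239 in the others. Pluripotency markers summed to 5876 to 7591 and 2927 to 6815, with overlap. The part of these cells in the cadherin levels was not tested.

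**Figure D4:**
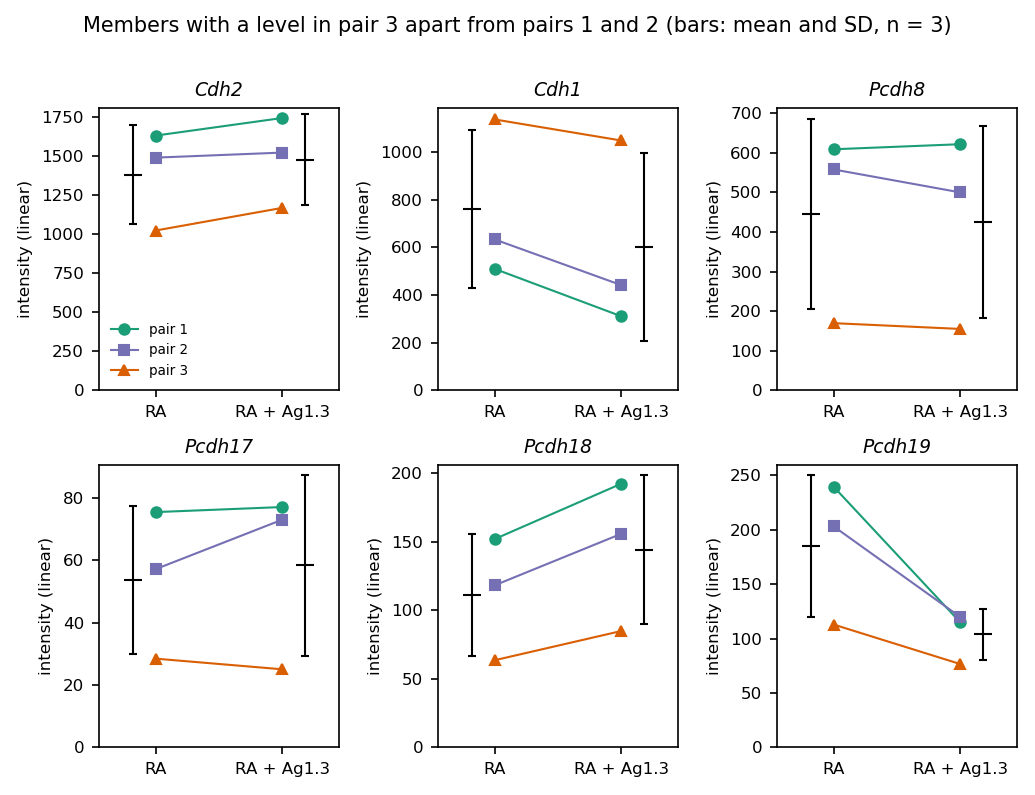
Deposited intensity (linear, vertical axis) of 6 members in each array, with lines joining the cultures of a pair and bars for the mean and SD of 3 arrays. Pair 3 is lowest for Cdh2, Pcdh8, Pcdh17, Pcdh18 and Pcdh19 and highest for Cdh1 in both treatments.

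Genes that work with cadherins were taken from 6 lists, of which 74 of 81 genes were measured. In the wider cadherin superfamily 4 of 22 rose and none fell, where 1.07% of all genes rose and 0.313% fell. Clstn2, a calsyntenin of synapses, went from 35.1 to 49.4 in RA to 287 to 362 with Ag1.3. Ret, the signalling receptor for GDNF family ligands, which carries cadherin-like domains, rose from 76.9 ± 28.2 to 345 ± 59.8 (SD, n = 3). Celsr1 and Celsr3, multi-pass cadherins of planar polarity and axon tract formation, had log2 fold changes of 0.92 and 1.001 with limma adjusted p of 0.0442 and 0.0180. Celsr1 read 196 to 234 in RA and 303 to 496 with Ag1.3, and Celsr3 54.3 to 91.5 and 144 to 186. Clstn2 remained past the threshold without any 1 of the pairs, and the others did not. Fat4, a very large cadherin of planar polarity, had -0.98 and Dsg2, a desmosomal cadherin, -0.70, with limma adjusted p of 0.201 and 0.0914.

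In the other lists none passed limma's threshold. Their counts at an unadjusted p under 0.05 in limma's test are small, and over all genes 7.24% were higher and 7.68% lower at that p. Of 13 catenins and cadherin-bound proteins, 1 was higher and 2 lower at that p. Ctnna2, the alpha catenin of neurons, came closest, reading 58.0 to 71.3 in RA and 90.1 to 99.2 with Ag1.3 with a log2 fold change of 0.44 and an adjusted p of 0.0710. Ctnnb1, beta-catenin, had -0.06 and Ctnna1 -0.04. Of 12 regulators of E-cadherin transcription 2 were higher and 1 lower at that p. Zeb1, a repressor of Cdh1, had 0.40 (adjusted p = 0.0985) and Zeb2 0.35. Snai2, also a repressor of Cdh1, went the other way at -0.48 (adjusted p = 0.141). Of 11 factors that act on promoter choice in the clusters 0 were higher and 2 lower at that p. Dnmt3b, a DNA methyltransferase, had -0.35 (adjusted p = 0.145), while Ctcf had -0.09. Protocadherin signalling partners numbered 9 measured genes, with 2 higher at that p, Fez1 first at 0.38. The 7 measured proteases that process cadherins had 3 higher and 1 lower at that p, with Pcsk5 at 0.31.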

How the data were processed

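Per the labels' protocols, RNA was extracted by mirVana kit and biotinylated by 3' IVT Express kit. The deposited table holds probe set intensity values on a linear scale for 6 arrays; how the authors summarised and scaled them is not given in the sources used here. Array medians ran from 48.7 to 52.6. Probe sets were named from the platform annotation: 34945 of 45101 had 1 symbol, and 932 with several, 9160 not listed and 64 controls were left out. All 56 members matched RefSeq (GRCm38.p6) by gene identifier.

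Values were transformed to log2(intensity + 16), on which scale changes of dim genes are understated, and all 18193 genes were fitted with limma 3.58.1 in R 4.3.3 with the replicate number as a block, two-sided, after a check on simulated data. The design text calls the cultures paired, and deviations from the group mean correlated at 0.54, 0.19 and 0.56 within pairs and -0.51 to 0.07 otherwise. Deviations within a group sum to 0, so the negative values between pairs follow in part from the positive ones within pairs. They add no separate support for the pairing. Intensity relative to the hybridization spikes was an alternative, since these read 0.18 higher (log2) on Ag1.3 arrays. The members, the lists and the tests were chosen with earlier results of these data known. Named are all members past the threshold or with an unadjusted p under 0.05 and the same direction in all pairs, those with a contrary further probe set at that p, 14 fixed members, and in each partner list the genes past the threshold or else the 1 with the smallest p. Other members and partner genes given with values were added to complete their class. Precision is limited by having 3 arrays per group.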

Additional observations from a re-analysis of the deposited data

How the results depend on the processing

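Of 56 members 2 passed in the analysis reported, and also without the replicate block and after quantile normalization. The count was 0 with a pseudocount of 1 (limma called 0 of all 18193 genes there, with 17 members at an unadjusted p under 0.05) and 1 with the mean of all probe sets. It was 5 with a pseudocount of 64, 5 with a variance that follows intensity, 7 (3 higher and 4 lower) after scaling to the hybridization spikes and 7 among the 18 members above the median probe set. Leaving out a pair gave 0 to 1. For the partner and regulator genes, 4 of 74 passed, and 11 at a pseudocount of 64, 16 with spike scaling, 0 at a pseudocount of 1 (20 at an unadjusted p under 0.05), 11 above the median probe set, 11 with the variance trend, 2 without the replicate block and 1 whichever pair was left out. Over all genes 252 were called (1.39%, and 77.4% of these higher), against 86 in the unblocked fit (0.473%). There were 831 with a pseudocount of 64 (4.57%) and 891 with the variance trend (4.90%). Spike scaling gave 2708 (14.9%, and 10.9% of these higher). Above the median probe set 950 of 11441 genes were called (8.30%), and without a pair 35 to 62 of all genes (0.192% to 0.341%). The cause of these differences was not tested, apart from the fewer genes or samples that some settings use.

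Median log2 fold changes moved by more than the spread between pairs in these settings. With a pseudocount of 1 they were 0.27 for clustered protocadherins, 0.029 for classical and 0.31 for other numbered cadherins. With spike scaling they were -0.054 for clustered and -0.15 for other protocadherins, -0.17 for classical and 0.0082 for other numbered cadherins, where all genes had -0.19. Above the median probe set they were 0.34 over 5 clustered protocadherins and 0.11 over 8 classical cadherins, and no other numbered cadherin was left. With a pseudocount of 64 the other numbered cadherins had 0.10. Without pair 1 the classical median was 0.039, while without pair 2 or pair 3 it was 0.0091 and 0.026, within that spread. Signs turned for Pcdhb15 (0.0059) and Pcdh7 (0.017) with the mean of probe sets, for Pcdh7 (0.092) without pair 2, for Pcdh17 (-0.045 to 0.15) when a pair was left out, and with spike scaling for Pcdh10 (-0.063), Pcdh17 (-0.12), Cdh2 (-0.080) and Cdh11 (-0.062), none of them called. The paired analysis with the replicate block was the main one; without the replicate block the same 2 members passed, Cdh6 and Cdh13.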
